A study of Mus musculus with 12 samples.

Results

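The genes described here encode receptors for extracellular nucleotides and adenosine (P2rx4, P2rx7, P2ry2, P2ry6, P2ry14, Adora2a and Adora2b), the ATP-degrading enzyme Entpd1 (CD39), and the G-protein receptors Gpr34 and Gpr84. They were chosen by name, and all 10 were represented among the 24180 gene names on the array, by 14 of 55671 probes. RNA came from RAW264.7 cells, a transformed mouse macrophage line, after 24 h in 4 conditions with 3 samples each. HS+LPS cells received 40 mM added NaCl and 10 ng/ml of LPS, the bacterial cell-wall lipid that activates macrophages through TLR4. NS+LPS cells received LPS alone, HS cells received the added NaCl alone, and NS cells received neither. Since all groups were the same line, no group stands for primary macrophages. Whether the 3 samples of a group came from separate cultures is not stated, and the p-values rest on a spread that may be only technical.

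ATP and UTP released by stressed or dying cells act on macrophages as danger signals. P2X receptors are ion channels opened by ATP, whereas P2Y receptors couple to G proteins and respond to ATP, UTP, UDP or UDP-sugars. Surface enzymes such as CD39 degrade ATP stepwise, and the adenosine formed in the end acts through its own G-protein receptors, which generally restrain inflammatory activation. P2X7 is known for triggering the NLRP3 inflammasome after LPS priming.

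Signal is given throughout as log2 of the processed intensity relative to the 75th percentile of the same array, so 0 is the level of that percentile. Values of different probes cannot be set against each other. The 75th percentile itself was 410.8 to 437.8 intensity units on HS+LPS arrays, 621 to 634.6 on NS+LPS arrays, 613.5 to 656.4 on HS arrays and 641.4 to 782.6 on NS arrays. One slide held all HS and NS arrays with NS+LPS replicates 1 and 2, and NS+LPS replicate 3 was on another with the same scan day. The HS+LPS arrays were together on one more slide, with a later scan day. In every comparison that involves them, treatment and slide (or scan day) cannot be told apart. Of 9 macrophage markers, 8 were well above background on all 12 arrays and Mertk on none, while none of 4 epithelial markers was above background on any. Well above background on all 12 arrays were also 1 of 4 T cell markers (Cd3e), 1 of 4 B cell markers (Cd79b), 1 of 5 neutrophil markers (Elane), 2 of 4 endothelial markers (Kdr and Pecam1) and 0 of 4 fibroblast markers. Their sums were small beside those of the macrophage markers, but not equal between groups. The neutrophil sum was 0.896 to 1.13 in HS+LPS, 1.48 to 1.76 in NS+LPS, 0.567 to 0.785 in HS and 0.576 to 0.639 in NS. The T cell sum was 1.05 to 1.15 in HS+LPS and 1.31 to 1.57 in the other groups. The B cell sum was 0.296 to 0.329 in HS+LPS, 0.233 to 1.65 in NS+LPS and 0.234 to 0.298 in HS and NS. The endothelial sum was 3.44 to 3.63 in HS+LPS, 3.14 to 3.54 in NS+LPS, 2.75 to 3.45 in HS and 2.57 to 3.14 in NS. The part of these markers in the results was not tested. The summed macrophage marker signal, on a linear scale in units of the array's 75th percentile, was 1030 to 1080 in HS+LPS, 847 to 890 in NS+LPS, 823 to 916 in HS and 814 to 853 in NS. A lower signal of a gene can mean fewer cells with its RNA or less RNA per cell, which these bulk samples cannot tell apart.

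The results turn on a few 60-base probes, and their last 30 bases are shown because different probes of P2rx7 gave different results. They are printed 5′ to 3′ in lower case, and capitals mark a polyadenylation signal (AATAAA or ATTAAA), which lies near the 3′ end of a transcript. The signal was found in 6 of the 14 whole probes. Probe positions are those of the array files, on mm9.
P2rx7 upstream probe: tcacaaaattaatgttagagtttcttttag
P2rx7 middle probe: ccagctggttgtatacattggatccaccct
P2rx7 downstream probe: ctaaactcttcctaatttcgtgtaagggtt
P2rx4 main probe: tgacctaggaccaaacATTAAAgaaaataa
P2ry6: aagagagaAATAAAtgtgtttttgtggttg
P2ry2: aaaattaccaatacaaaggcgaacccattg
Adora2b main probe: ttattgggacctaaagtgtgaaaattttac
Gpr34: attacttcaaaatcttacatcacttgatgc
Gpr84: taattattAATAAAgacattgcatcccccc
The P2rx7 probes lie on the plus strand at chr5:123105174-123105233, chr5:123120528-123123413 (60 bases placed over a span of 2886) and chr5:123134194-123134253. The main P2rx4 probe follows on the same strand at chr5:123178983-123179042, starting 44789 bases beyond the start of the last P2rx7 probe. The P2ry6 and P2ry2 probes lie on the minus strand at chr7:108086149-108086208 and chr7:108145553-108145612. The remaining probes are at chr11:62079834-62079893 (Adora2b, plus strand), chrX:13217863-13217922 (Gpr34, plus strand) and chr15:103138670-103138729 (Gpr84, minus strand).

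Measurable genes were those with a probe that stood well above background throughout 1 or more groups, and 7 of the 10 were. These were P2rx4, P2rx7, P2ry2, P2ry6, Adora2b, Gpr34 and Gpr84, with 11 of the 14 probes. P2ry14, the receptor for UDP-glucose, Adora2a, a cyclic AMP-raising adenosine receptor, and Entpd1 were not well above background on any of the 12 arrays and were not tested. Their signals lay between -6.80 and -5.60 for P2ry14, between -6.61 and -5.02 for Adora2a and between -6.89 and -6.18 for Entpd1.

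**Figure D1:**
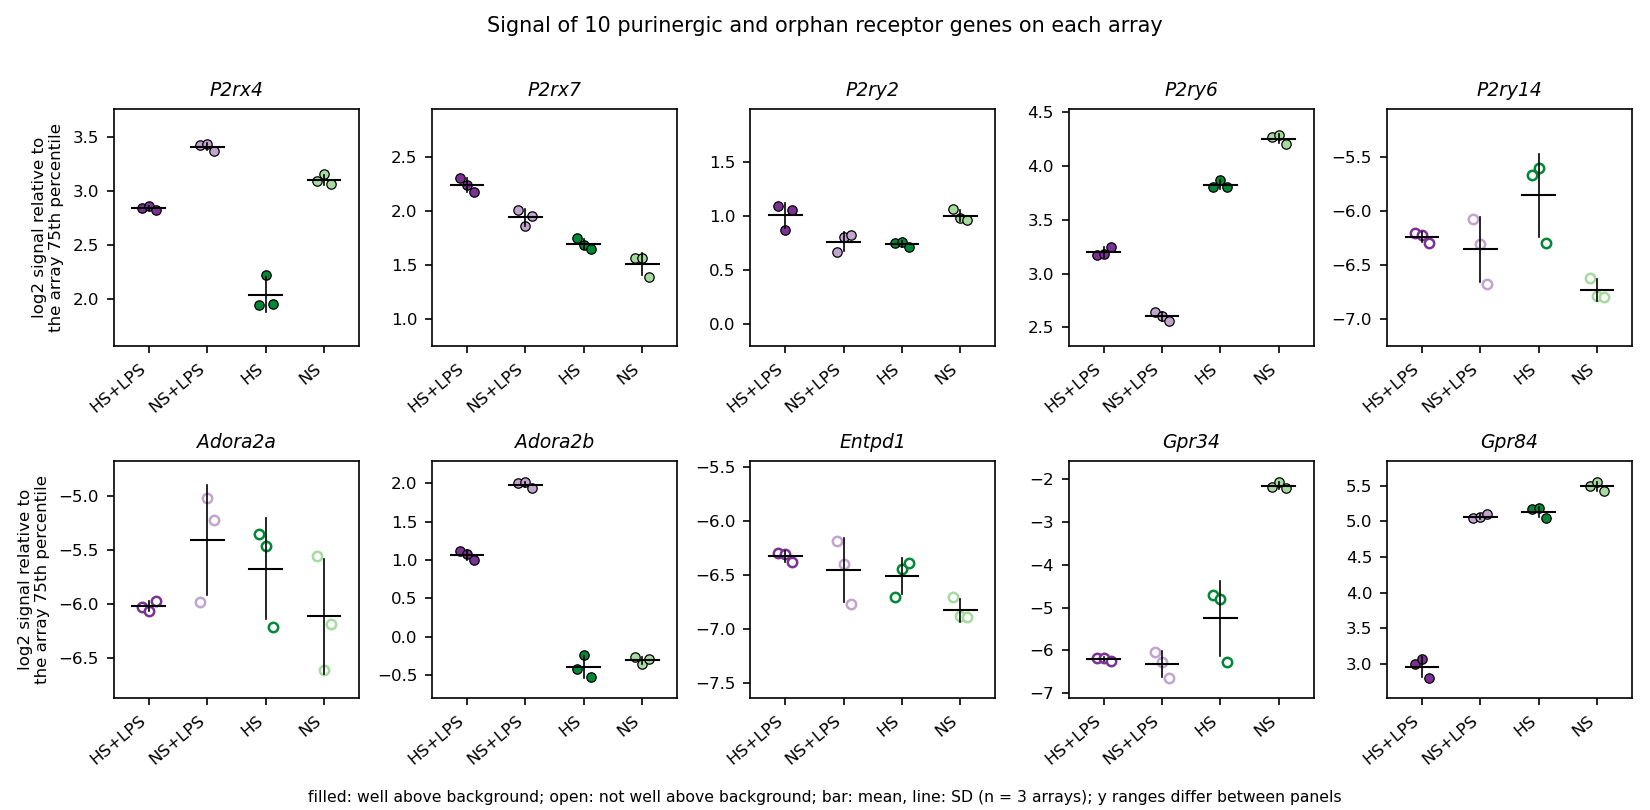
Signal of each of the 10 genes on each array (log2 relative to the array's 75th percentile), in HS+LPS, NS+LPS, HS and NS, with the mean and SD of 3 arrays. Filled points were well above background and open points were not; P2ry14, Adora2a and Entpd1 have open points only, and Gpr34 has filled points in NS alone.

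With LPS present, added NaCl split the measurable genes. P2ry6, P2rx7 and P2ry2 rose, Gpr84, Adora2b and P2rx4 fell, and Gpr34 was not well above background in either group, so that 6 of 7 were called in HS+LPS against NS+LPS (limma, adjusted p under 0.05). These calls are of each gene's brightest probe. The downstream P2rx7 probe was called lower here, and averaged over each gene's probes neither P2rx7 (0.08) nor P2rx4 (-0.25) was called. The second P2rx4 probe in that average was not well above background throughout either group. Over all 13860 genes tested, 57.5% were called in this comparison, 26.2% higher and 31.4% lower. Without LPS and leaving out Gpr34, 1 of 6 rose (P2rx7) and 4 fell (P2rx4, P2ry6, Gpr84 and P2ry2) in HS against NS, while 37.0% of all genes were called, 18.2% higher and 18.8% lower. The P2rx7 call was lost under 12 of 22 alternative settings, within the shared slide among them (adjusted p = 0.0748). Gpr34 entered the test through NS alone, so it had to be brighter there than elsewhere, and its fitted calls against NS and in the interaction are not counted.

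LPS changed the brightest probe of all 6 other measurable genes. In NS+LPS against NS, Adora2b, P2rx7 and P2rx4 rose and P2ry6, Gpr84 and P2ry2 fell, also within the shared slide, while 63.7% of all genes were called, 28.6% higher and 35.1% lower. Both other P2rx7 probes were called lower here, and averaged over each gene's probes P2rx7 was called lower (-0.17, adjusted p = 0.0349) and P2rx4 gave -0.295, not called. The second P2rx4 probe in that average passed the filter through NS alone, which set its direction against NS. The averaged P2rx4 value thus does not bear on the rise of the main probe. In HS+LPS against HS, Adora2b, P2rx4, P2rx7 and P2ry2 rose and Gpr84 and P2ry6 fell, while 72.3% of all genes were called, 30.5% higher and 41.8% lower. The averaged P2rx7 probes gave -0.09 here, not called. Gpr34 was not well above background in either of these groups. Separation of replicates was common on these arrays. The 3 arrays of each group did not overlap for 64.2% of all genes in HS+LPS against NS+LPS, 50.4% in HS against NS, 69.6% in NS+LPS against NS and 74.9% in HS+LPS against HS. The 4 comparisons share groups (NS, for example, stands in both NaCl alone and LPS alone), so their values are given side by side and not as independent results.

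**Figure D2:**
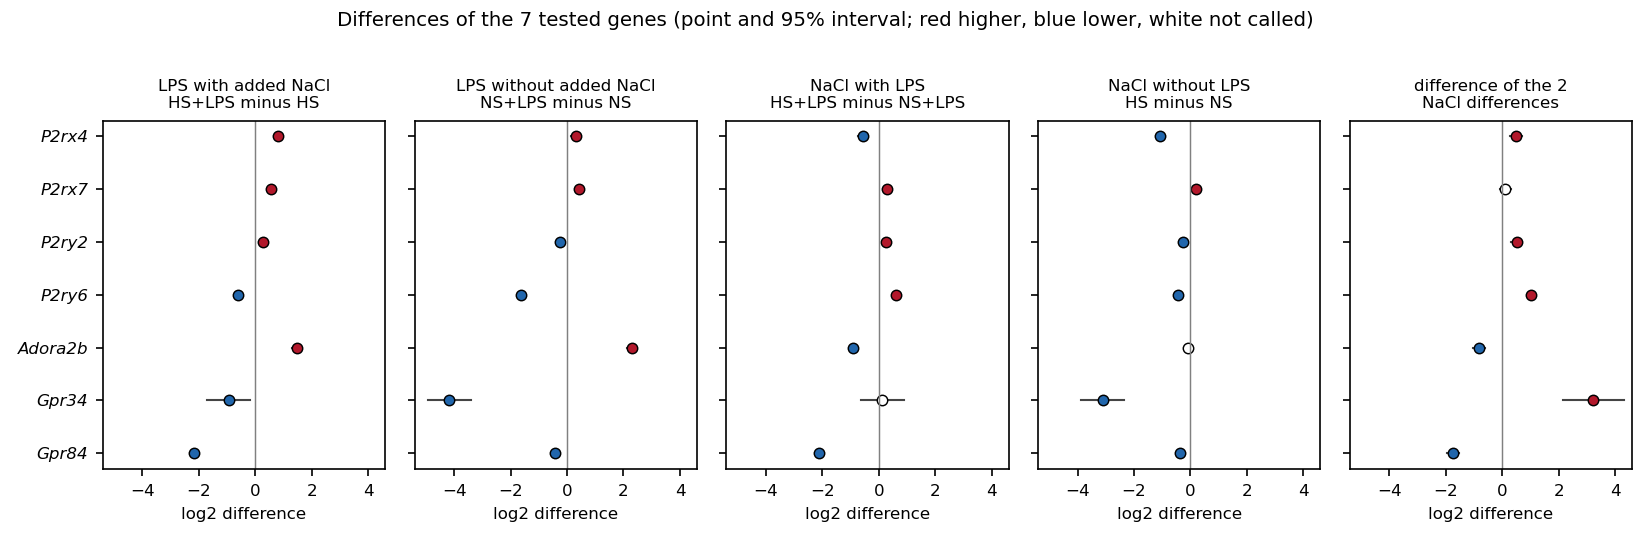
Log2 differences of the 7 measurable genes with 95% intervals in each comparison, and the difference between both NaCl differences at the right. Red points were called higher, blue points lower and white points not called; Adora2b moved most upward with LPS, and Gpr84 most downward with NaCl in the presence of LPS. Gpr34 values rest on signals near background in all groups but NS.

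P2rx4 encodes an ATP-gated channel of macrophages that resides largely on lysosomes. It read 2.84, 2.86 and 2.82 on HS+LPS arrays, against 3.42, 3.43 and 3.37 on NS+LPS arrays. It read 1.94, 2.22 and 1.95 on HS arrays, against 3.09, 3.15 and 3.06 on NS arrays. The 4 groups did not overlap, with NS+LPS highest and HS lowest. Added NaCl lowered P2rx4 both with LPS (log2 difference -0.57, SE 0.07, a 1.48-fold decrease, adjusted p = 7.3e-05) and without it (-1.06, SE 0.07, 2.09-fold, adjusted p = 3.97e-06). The decrease was smaller in the presence of LPS, with a difference between the NaCl effects of 0.50 (SE 0.10, adjusted p = 0.0034). LPS raised P2rx4 by 0.80 in HS+LPS against HS and by 0.31 in NS+LPS against NS. A second P2rx4 probe was dim, was well above background on all 3 arrays only in NS, and was called in no comparison. The filter thus set its direction against NS, and its transcript was not matched to a RefSeq symbol. 

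P2rx7 encodes the ATP-gated channel that opens at high ATP and leads to inflammasome activation. Its upstream probe, the brightest, read 2.31, 2.24 and 2.18 on HS+LPS arrays, against 2.01, 1.86 and 1.96 on NS+LPS arrays. The same probe read 1.75, 1.69 and 1.65 on HS arrays, against 1.57, 1.57 and 1.39 on NS arrays. Its groups were ordered HS+LPS, NS+LPS, HS and NS from high to low, without overlap. The differences were 0.30 for HS+LPS against NS+LPS (SE 0.06, adjusted p = 0.00252) and 0.18 for HS against NS (SE 0.06, adjusted p = 0.0413). LPS raised the signal by 0.54 in HS+LPS against HS and by 0.43 in NS+LPS against NS. The NaCl effects with and without LPS differed by 0.11 (SE 0.09, 95% interval -0.08 to 0.31), which was not called. The settings that lost the call of HS against NS included those without HS replicate 1, 2 or 3, NS replicate 3, NS+LPS replicate 3 or HS+LPS replicate 2, with differences of 0.12 to 0.21.

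The other P2rx7 probes did not follow the upstream one. Their p-values are from a fit over every probe that passed the filter, in which the upstream probe had an adjusted p of 0.0603 for HS against NS. The downstream probe read 0.71, 0.66 and 0.85 on HS+LPS arrays, against 1.05, 0.86 and 1.09 on NS+LPS arrays. It read 1.44, 1.53 and 1.52 on HS arrays, against 1.63, 1.67 and 1.53 on NS arrays. Its order over the groups was thus the opposite, with HS and NS touching at 1.53. It fell by 0.76 in HS+LPS against HS (adjusted p = 7.59e-06), by 0.61 in NS+LPS against NS (adjusted p = 4.81e-05) and by 0.26 in HS+LPS against NS+LPS (adjusted p = 0.0136). The middle probe, between -1.45 and -0.93 on all arrays, was called in NS+LPS against NS alone, where it fell by 0.32 (adjusted p = 0.0131).

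The change in the gap between the upstream and the downstream probe was also taken within each array, which leaves out differences between arrays in scaling. The gap was 1.60, 1.58 and 1.33 on HS+LPS arrays, against 0.96, 1.00 and 0.88 on NS+LPS arrays. It was 0.31, 0.16 and 0.13 on HS arrays, against -0.06, -0.09 and -0.14 on NS arrays. No group overlapped another, and the gap widened by 1.30 in HS+LPS against HS and by 1.04 in NS+LPS against NS. With 3 arrays a group, the exact two-sided permutation test gave p = 0.1 in each of the 4 comparisons, the smallest it can give. The direction given for P2rx7 as a gene thus depends on the probe.

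**Figure D3:**
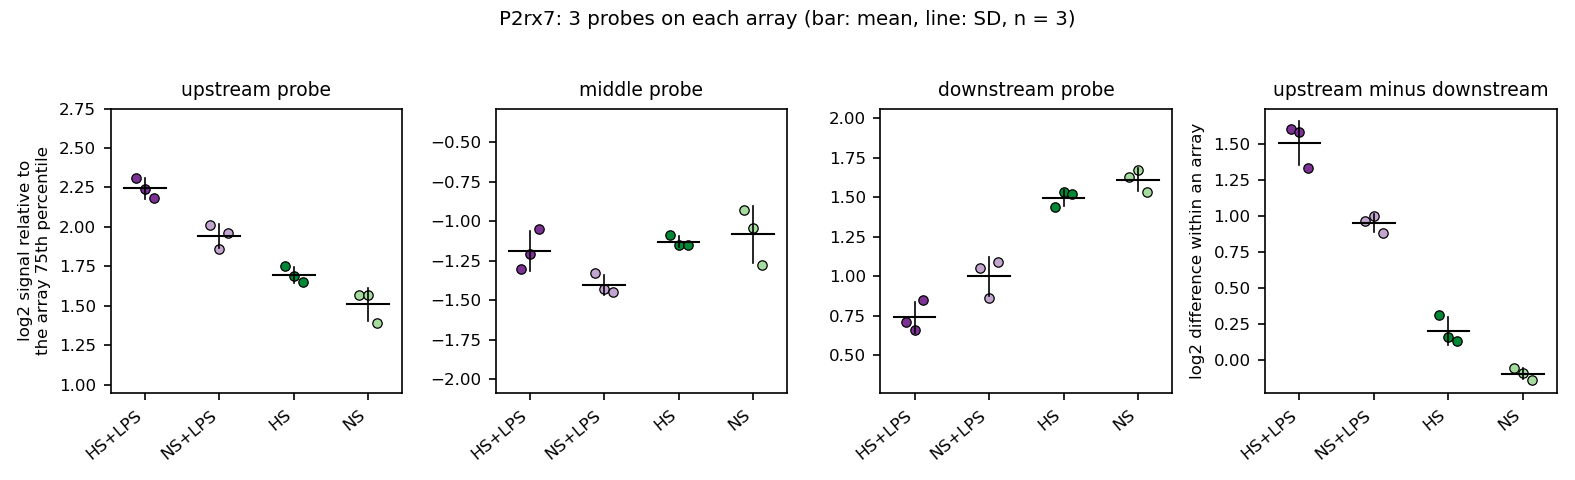
The 3 P2rx7 probes on each array (log2 relative to the array's 75th percentile), and at the right the upstream minus the downstream probe within each array, with the mean and SD of 3 arrays. The upstream probe is highest in HS+LPS (2.18 to 2.31) and the downstream probe lowest there (0.66 to 0.85).

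P2ry2, a receptor for ATP and UTP, had the narrowest range of group means of the 7 genes, between 1.01 in HS+LPS and 0.74 in HS. It read 1.09, 0.87 and 1.05 on HS+LPS arrays, against 0.66, 0.80 and 0.82 on NS+LPS arrays. It read 0.75, 0.76 and 0.71 on HS arrays, against 1.06, 0.98 and 0.96 on NS arrays. Either treatment alone thus gave lower signal than NS, whereas HS+LPS overlapped NS. NaCl raised P2ry2 with LPS (0.25, SE 0.06, adjusted p = 0.00778) and lowered it without LPS (-0.26, SE 0.06, adjusted p = 0.0094). The difference between these effects was 0.51 (SE 0.09, adjusted p = 0.00207).

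P2ry6, the UDP receptor, is known for promoting phagocytosis by microglia, the macrophages of the brain. Its probe was spotted 10 times on each array, and the spots were averaged. P2ry6 read 3.17, 3.18 and 3.25 on HS+LPS arrays, against 2.64, 2.61 and 2.56 on NS+LPS arrays. It read 3.80, 3.87 and 3.80 on HS arrays, against 4.27, 4.28 and 4.20 on NS arrays. The groups stood in the order NS, HS, HS+LPS and NS+LPS, without overlap. LPS lowered P2ry6 by 1.65 (SE 0.04, 3.14-fold, adjusted p = 2.13e-10) in NS+LPS against NS and by 0.62 (adjusted p = 2.8e-07) in HS+LPS against HS. NaCl raised it by 0.60 (adjusted p = 1.89e-06) with LPS and lowered it by a log2 difference of -0.43 (adjusted p = 3.67e-05) without LPS. Both NaCl effects differed by 1.02 (SE 0.06, adjusted p = 3.22e-06).

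Adora2b, the low-affinity adenosine receptor, showed the strongest rise with LPS among the 7. Its main probe read 1.12, 1.08 and 1.00 on HS+LPS arrays, against 2.00, 2.01 and 1.94 on NS+LPS arrays. That probe read -0.42, -0.24 and -0.52 on HS arrays, against -0.27, -0.36 and -0.29 on NS arrays. HS and NS overlapped, and all LPS arrays were above both. Adora2b was 4.88-fold higher in NS+LPS than in NS (2.29, SE 0.07, adjusted p = 6.85e-10) and 2.75-fold higher in HS+LPS than in HS (1.46, SE 0.07, adjusted p = 1.81e-08). NaCl lowered it by a log2 difference of -0.92 with LPS (adjusted p = 2.62e-06), while without LPS the difference of -0.09 (95% interval -0.24 to 0.06) was not called. Without HS replicate 2, HS against NS gave -0.16 and was called. The difference between the NaCl effects was -0.83 (SE 0.10, adjusted p = 0.000172). A second probe, at chr11:62078754-62078813, gave -0.81 for HS+LPS against NS+LPS and 2.48 for NS+LPS against NS, with 0.03 for HS against NS.

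Gpr34 encodes a receptor for lysophosphatidylserine and is found in microglia and other myeloid cells. It read -6.17, -6.17 and -6.25 on HS+LPS arrays, against -6.04, -6.28 and -6.64 on NS+LPS arrays. It read -4.71, -4.79 and -6.26 on HS arrays, against -2.18, -2.05 and -2.20 on NS arrays. Only the NS arrays were well above background. As a description, since the filter fixed the direction, Gpr34 was at least 5.94-fold lower in HS than in NS and at least 4.81-fold lower in NS+LPS than in NS. These bounds hold for the main scaling. After normexp background correction, the fitted decreases were 2.39-fold (log2 -1.26) and 2.78-fold (log2 -1.47). That correction adds an offset of 50 intensity units, which narrows the folds of dim probes, so these values are not comparable with the bounds. Each bound sets the NS mean against, on each array of the dim group, the higher of the probe's own signal and the lowest signal counted well above background. No fold is given where neither group was well above background, and the interaction value of 3.23 follows from that floor and the filter.

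Gpr84, a receptor for medium-chain fatty acids that is induced in activated macrophages, showed the strongest fall of the 7 with NaCl in the presence of LPS. It read 3.00, 3.07 and 2.81 on HS+LPS arrays, against 5.04, 5.06 and 5.10 on NS+LPS arrays. It read 5.17, 5.18 and 5.05 on HS arrays, against 5.50, 5.55 and 5.42 on NS arrays. HS+LPS stood far below the other groups, HS and NS+LPS overlapped, and NS was highest. Gpr84 was 4.31-fold lower in HS+LPS than in NS+LPS (-2.11, SE 0.07, adjusted p = 6.54e-08) and 1.28-fold lower in HS than in NS (-0.36, SE 0.07, adjusted p = 0.00273). The NaCl effects differed by -1.75 (SE 0.10, adjusted p = 3.16e-06). LPS lowered the signal by a log2 difference of -2.18 in HS+LPS against HS and -0.42 in NS+LPS against NS.

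In the test of the difference between NaCl effects, 5 of 6 genes were called (Gpr34 left out), while 36.2% of all genes were called, 17.4% higher and 18.8% lower. The NaCl effect was more positive with LPS for P2rx4, P2ry2 and P2ry6, and more negative for Adora2b and Gpr84. P2ry2 and P2ry6 were the genes whose NaCl effect was called in opposite directions with and without LPS. This test includes the HS+LPS arrays and so carries the same limit.

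Promoters of P2rx7, Adora2b and Gpr84 are shown because these genes had probe-dependent LPS responses, the strongest rise with LPS and the strongest fall with NaCl under LPS. They are from RefSeq on GRCm38.p6, a different build from that of the probes, and run from 250 bases before to 50 bases after the gene's start. Capitals mark motifs searched on both strands: GGANTTTCC for NF-kB, TGANTCA for AP-1, TGGAAA for the core of the NFAT5 site, GAGGAA for PU.1 and TGACGTCA for CRE. The end of the NF-kB motif can share letters with TGGAAA on the other strand. GGANTTTCC was shortened from a longer form that matched no entry of the 10 genes. Sites written with other letters are not found by such a search.
P2rx7 promoter (chr5:122643677-122643976, plus strand): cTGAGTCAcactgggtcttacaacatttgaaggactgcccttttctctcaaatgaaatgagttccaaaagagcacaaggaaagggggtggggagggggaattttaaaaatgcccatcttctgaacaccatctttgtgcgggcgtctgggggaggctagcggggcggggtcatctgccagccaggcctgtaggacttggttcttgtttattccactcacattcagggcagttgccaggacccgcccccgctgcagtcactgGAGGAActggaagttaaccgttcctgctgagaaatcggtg
Adora2b promoter (chr11:62248734-62249033, plus strand): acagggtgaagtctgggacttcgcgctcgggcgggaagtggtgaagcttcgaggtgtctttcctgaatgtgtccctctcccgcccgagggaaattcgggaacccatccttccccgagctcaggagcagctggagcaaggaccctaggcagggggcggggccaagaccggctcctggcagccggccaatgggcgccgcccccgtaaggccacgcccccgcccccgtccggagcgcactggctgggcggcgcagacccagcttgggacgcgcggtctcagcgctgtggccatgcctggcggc
Gpr84 promoter (chr15:103310389-103310688, minus strand): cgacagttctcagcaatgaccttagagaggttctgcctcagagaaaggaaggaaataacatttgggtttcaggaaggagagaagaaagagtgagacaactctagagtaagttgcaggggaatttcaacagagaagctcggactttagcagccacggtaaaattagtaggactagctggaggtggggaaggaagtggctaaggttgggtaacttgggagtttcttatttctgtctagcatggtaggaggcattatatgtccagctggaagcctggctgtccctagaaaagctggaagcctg
This P2rx7 promoter held 1 AP-1 and 1 PU.1 match, and those of Adora2b and Gpr84 held none. P2rx7 had another entry, at chr5:122650133-122650432 on the plus strand, which is not printed and held 1 PU.1 match. AP-1 letters were found in 7.8% of 32851 mouse promoters and PU.1 letters in 28.3%. NF-kB letters were in 1.3% of all promoters, TGGAAA in 21.4% and CRE in 1.8%. Among 13 entries for 7 of the 10 genes, 3 held AP-1 (P2rx7 and P2ry14), 2 held TGGAAA (P2ry14), 1 held NF-kB (P2ry14), 7 held PU.1 (P2rx7, P2ry14 and Entpd1), and none held CRE. P2ry6, Gpr34 and Adora2a had no entry.

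Related genes were taken from 7 lists of 63 genes, of which 62 were on the array and 39 measurable. They comprised 33 genes of nucleotide and adenosine signalling (18 measurable), 6 inflammasome genes (all measurable) and 24 other orphan, lipid and metabolite receptors (15 measurable). In HS+LPS against NS+LPS, 6 rose and 22 fell (57.5% of all genes were called), with a median log2 difference of -0.25, against -0.04 over all genes. In HS against NS, 5 rose and 14 fell (37.0%), with a median of -0.12, against 0.02. In NS+LPS against NS, 16 rose and 16 fell (63.7%), and the median was -0.04, against -0.03. In HS+LPS against HS, 17 rose and 16 fell (72.3%), and the median was 0.08, against -0.11. These counts include Il1b and Gpr18, which passed the filter through the LPS groups alone, so the direction of their LPS calls was fixed. Both are also among the 5 that rose in HS against NS (0.269 and 1.415). Neither was well above background in HS or NS, so these rises compare signals near the floor. They also include Gpr35, which passed through NS+LPS alone, so its calls against HS+LPS and NS were fixed likewise. Gpr82, which passed through HS alone, is counted among those that fell in NS+LPS against NS (-0.821). It was well above background on 2 of 3 NS arrays and on no NS+LPS array, and was there at least 1.12-fold lower. Of the 18 nucleotide and adenosine genes alone, 4 rose and 8 fell in HS+LPS against NS+LPS (median -0.07), and 3 rose and 4 fell in HS against NS (median 0.03). With LPS, 5 rose and 8 fell in NS+LPS against NS (median -0.10), and 5 rose and 10 fell in HS+LPS against HS (median -0.23). None of 5 other P2Y receptors was measurable.

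The 6 inflammasome genes all fell with NaCl in the presence of LPS (6 of 6 called). Over all genes, 57.5% were called there, 31.4% lower. The median log2 difference was -0.53 for the 6, against -0.04 over all genes. Il1b, the cytokine that the inflammasome matures, averaged -0.96 ± 0.04 in HS+LPS and 1.39 ± 0.14 in NS+LPS (SD, n = 3 each), a 5.09-fold decrease (adjusted p = 6.54e-08). Casp1, the protease that cleaves it, fell by 0.62 and Nlrp3, the sensor, fell by 0.39. LPS raised 5 of the 6 in NS+LPS against NS, where 63.7% of all genes were called, 28.6% higher. Il1b is among the 5, but it passed the filter through the LPS groups alone, which fixed the direction of its rise. Il1b was then at least 73.0-fold higher, since it was not well above background in NS. Casp4 rose 5.78-fold and Il18 rose by 2.32 on the log2 scale. Casp1 and Nlrp3 rose by 1.04 and 1.28. Pycard, the adaptor, differed by 0.10 there and was not called.

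Among adenosine receptors outside the named 10, Adora3 was the one measurable. It averaged 1.01 ± 0.11 in HS+LPS and 0.61 ± 0.02 in NS+LPS, with -2.04 ± 0.60 in HS and -2.45 ± 0.12 in NS (SD, n = 3 each). LPS raised it 8.28-fold in HS+LPS against HS and 8.37-fold in NS+LPS against NS, and neither NaCl difference (0.39 and 0.41) was called. Of 4 other measurable P2X channels, 3 were called lower with NaCl under LPS, where 57.5% of all genes were called, 31.4% lower. P2rx5 differed by -0.96. P2rx2 and P2rx3 were not well above background in HS+LPS and were there at least 2.1-fold and 1.17-fold lower, though P2rx3 was well above background on only 2 of 3 NS+LPS arrays.

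Of 7 measurable converting enzymes, 4 rose and 1 fell in HS+LPS against NS+LPS (57.5% of all genes were called). The nucleoside diphosphatases Entpd4, Entpd5 and Entpd6 differed by 0.16, 0.18 and 0.23. Pnp, which degrades inosine and guanosine, fell by 0.46 there and rose by 1.30 with LPS alone. Ada, which deaminates adenosine, showed the reverse, with 0.35 for HS+LPS against NS+LPS and -1.06 for NS+LPS against NS. Of 6 measurable release and transport genes, 4 fell with NaCl under LPS and none rose, against the same 57.5% of all genes. The equilibrative nucleoside transporters Slc29a1, Slc29a2 and Slc29a3 differed by -0.49, -0.39 and -0.56, and Panx1, an ATP-releasing channel, by -0.17.

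Of 15 other measurable orphan, lipid and metabolite receptors, 2 rose (Gpr107 by 0.43 and Gpr132 by 0.17) and 8 fell in HS+LPS against NS+LPS. Gpr35, among the 8, was well above background throughout NS+LPS alone, so the filter set its direction. Over all genes, 57.5% were called there. In HS against NS, 1 of the 15 rose (Gpr18) and 8 fell, against 37.0% of all genes called. Ptafr, the receptor for platelet-activating factor, fell by 0.71 with LPS and by 1.35 without it. The niacin receptor Hcar2, named Niacr1 on the array, averaged 2.16 ± 0.08 in HS+LPS and 2.38 ± 0.04 in NS+LPS, with -2.08 ± 0.12 in HS and -0.93 ± 0.005 in NS (SD, n = 3 each). It rose 18.8-fold in HS+LPS against HS and 9.92-fold in NS+LPS against NS. Gpr183, the oxysterol receptor, fell by 2.04 and 2.21 in these comparisons. Gpr18 was called higher in HS than in NS, but its signal was not well above background in either.

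**Figure D4:**
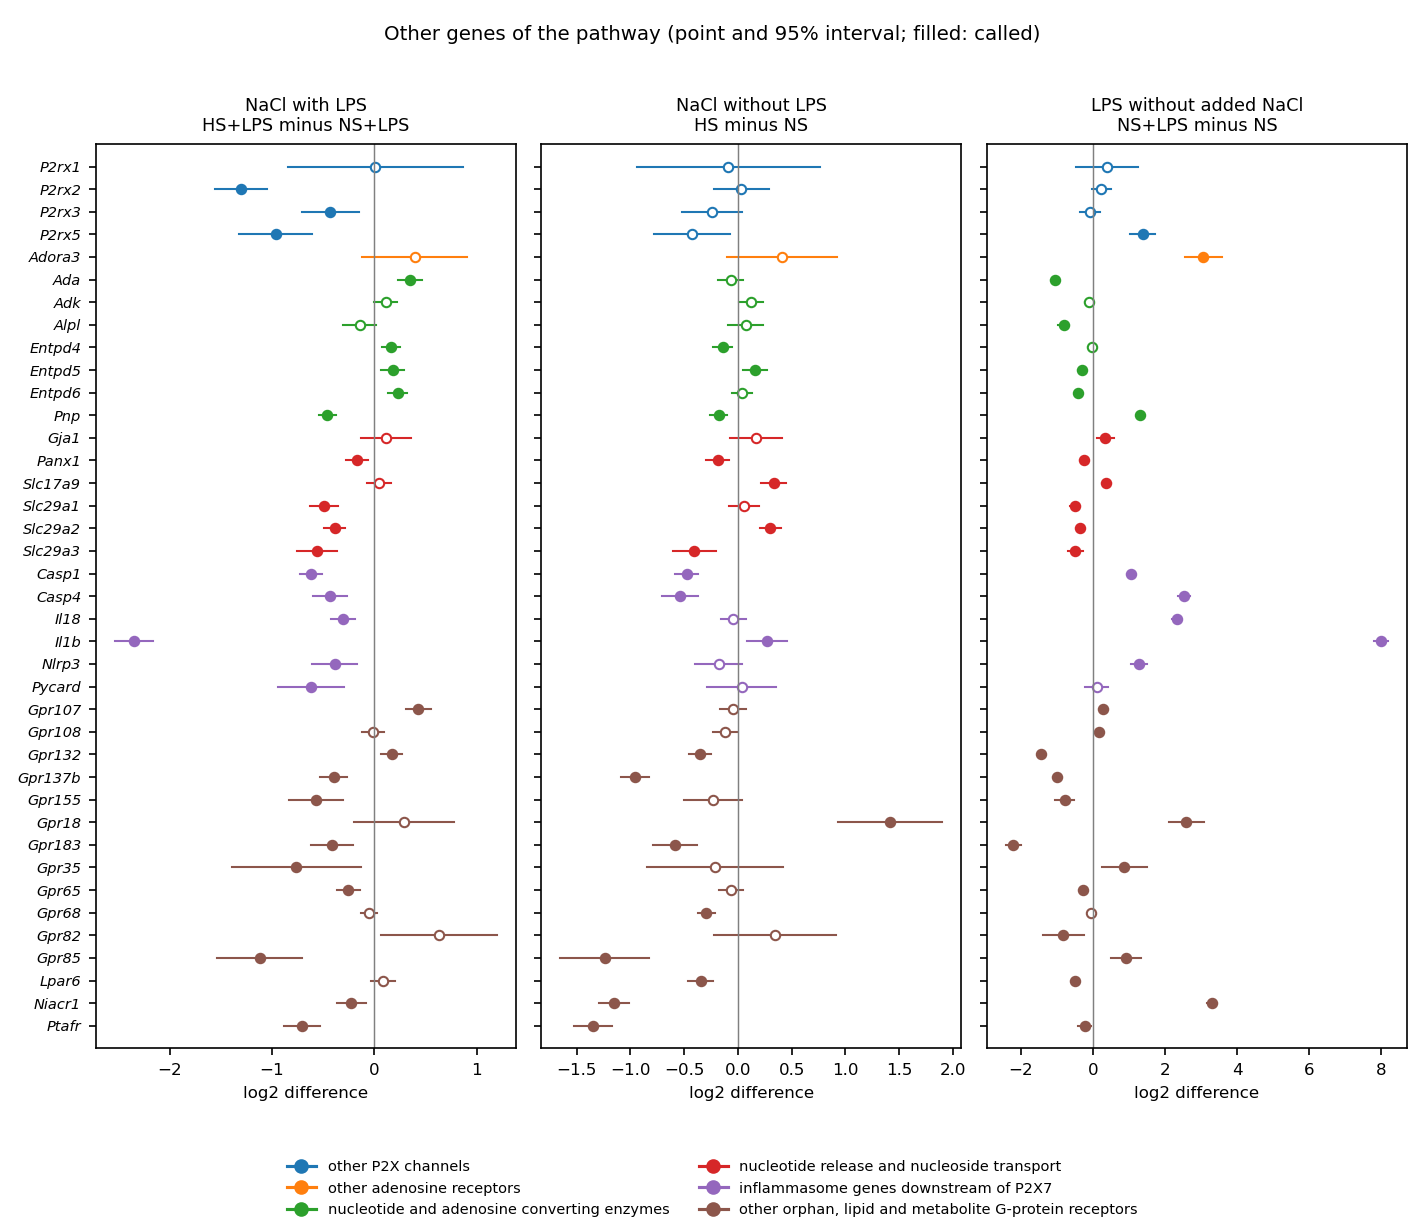
Log2 differences with 95% intervals of the 39 measurable genes of the related lists for HS+LPS minus NS+LPS, HS minus NS and NS+LPS minus NS; filled points were called. The x ranges differ between panels. All 6 inflammasome genes lie left of 0 in the first panel, and Il1b lies farthest right in the third.

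The genes whose log2 profile over the 12 arrays was closest to each member, by the root mean square of the difference after centring, were as follows. Dusp1 (0.12) and Pim1 (0.13) were closest to Adora2b, and Hist1h1a (0.15) was closest to Gpr84. Smpd2 (0.11) and AF251705 (0.11) were closest to P2ry6, and Nsf (0.05) was closest to P2ry2. For P2rx4 the closest were Slc25a24 (0.12) and Tmem106a (0.13), and for the upstream P2rx7 probe Nek8 and Ifi27l1 (0.06 each). Gpr34 had no close match (Jam3, 0.73).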

How the data were processed

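RNA of 12 RAW264.7 samples was hybridised to 1-colour Agilent arrays. Per the file headers, the deposited scanner values are processed intensity, background-subtracted and detrended by Feature Extraction 10.7.3.1, on a linear scale. The series' deposited value table also holds intensity. Its normalization is not given in the sources used here, and it served as an alternative. Groups came from the sample titles.

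The log2 of the deposited intensity minus the log2 75th percentile of the array's non-control spots was computed. Flagged outlier spots were left out, which dropped 10 probes, and repeated spots were averaged. No spot was saturated. Probes that never stood well above background throughout a group were removed, leaving 18846 of 33248 named probes, and the brightest stood for each of 13860 genes. limma 3.58.1 in R 4.3.3 was fitted to all 12 arrays (8 residual degrees of freedom), 2-sided, with Benjamini-Hochberg adjustment over all genes. Calls were made below an adjusted p of 0.05.

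Members and lists were chosen with earlier results of these data known. Named genes were all members, up to 3 called genes per list and comparison with the largest difference, genes in counts of 5 or fewer, and the genes closest to each member. The 22 alternatives covered background correction, normalization, filters, probe summaries, blocks and left-out samples. Sequences were from the array files and RefSeq.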

Additional observations from a re-analysis of the deposited data

Results flagged for a closer look

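The results below were singled out because the NaCl effect with LPS differed from that without LPS by limma's interaction test at an adjusted p under 0.05. Values are log2, the effect with LPS minus the effect without. Among the named receptors they were 3.23 for Gpr34, 1.02 for P2ry6, 0.51 for P2ry2, 0.50 for P2rx4, -0.83 for Adora2b and -1.75 for Gpr84. Gpr34 was well above background only in NS, so its value follows from the floor and the filter.

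Among the related genes, the value was 0.93 for Niacr1 (Hcar2), 0.64 for Ptafr, 0.42 for Ada and 0.30 for Entpd4. It was -0.26 for Il18, -0.28 for Pnp, -0.29 for Slc17a9, which loads vesicles with nucleotides, -0.54 for Slc29a1 and -0.65 for Pycard. It was -0.69 for Slc29a2, -1.13 for Gpr18, -1.33 for P2rx2 and -2.62 for Il1b. Gpr18 and Il1b were not well above background in HS or NS, nor P2rx2 in HS+LPS, which limits these 3 values. All values include the HS+LPS arrays, whose treatment and slide cannot be told apart.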

How the results depend on the processing

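Over up to 22 alternatives, 4 to 7 of 7 genes were called in HS+LPS against NS+LPS and 5 to 6 in HS against NS. For both LPS comparisons 6 to 7 were called, and 5 to 6 for the interaction. Gpr34 is otherwise included here, although the filter fixed its direction against NS. Of all genes tested, whose number also differed between the filters, 7102 to 8046 were called in HS+LPS against NS+LPS. In HS against NS, 3879 to 5419 were called. The ranges were 8177 to 10668 in NS+LPS against NS, 9160 to 10050 in HS+LPS against HS and 3823 to 5276 in the interaction. The main setting called 57.5%, 37.0%, 63.7%, 72.3% and 36.2% of 13860 genes, in that order. Of 716 single values, 686 kept their direction and side of the threshold, 2 became called, 7 changed sign and 24 were no longer called (3 of these with a changed sign). For Gpr34 in HS+LPS against NS+LPS, the sign turned with the deposited table (-0.012), quantile normalization (-0.011) and without NS+LPS replicate 3 (-0.04, in a range of -0.04 to 0.26 when leaving out 1 array). In HS+LPS against HS, Gpr34 turned to 0.147 with normexp; neither group was well above background. That call was lost without HS replicate 1 or 2 (-0.672 and -0.712) or any single HS+LPS array, and normexp gave a call in HS+LPS against NS+LPS (0.364). Its differences from NS were -1.256 in HS and -1.473 in NS+LPS with normexp. Averaging a gene's probes turned P2rx4 to -0.295 and P2rx7 to -0.166 in NS+LPS against NS, and P2rx7 to -0.092 in HS+LPS against HS, by construction, since their probes differed. For P2rx4, the second probe passed the filter through NS alone, which set its direction against NS. Over all genes, 48.0% of interaction calls were higher (2408 higher, 2611 lower), against 58.2% with the deposited table (3061 and 2198) and 58.1% with quantile normalization (3066 and 2210). The median gene shifted by -0.11 in HS+LPS against HS.

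Replicate numbers did not pair the samples: correlations of deviations were -0.201 to 0.124 for the same number and -0.152 to 0.23 for different numbers, and 5 of 12 arrays matched their own number best. With the replicate number as a block, 6, 6, 7, 7 and 6 of the 7 genes were called in HS+LPS against NS+LPS, HS against NS, NS+LPS against NS, HS+LPS against HS and the interaction. Within the shared slide, 5 genes were called in HS against NS, without P2rx7, and 7 in NS+LPS against NS. No such value exists for HS+LPS. Apart from HS+LPS against NS+LPS, all these counts include Gpr34. Its calls against NS and in the interaction follow from the floor and the filter. Its call in HS+LPS against HS compares groups that were both not well above background. Shares of all genes in the main setting are given above. The number of arrays and signal over background limit the precision.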
